A study of Mus musculus with 4 samples.

Results

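Of the 55681 probes on the mRNA array that are not controls, 3218 carried an Ensembl mouse transcript identifier as their systematic name, and these probes are described here. They were chosen by the start of that identifier (ENSMUST) in the scanner files, without use of any signal, and they covered 3071 transcripts on 3282 spots. The other classes used for comparison were 26536 probes with a RefSeq NM accession (messenger RNAs), 1216 probes with a RefSeq NR accession (RNAs that are not translated) and 2497 probes with an AK accession (cDNA clones).

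The samples were whole brains of newborn C57BL/6J offspring collected on postnatal day 1. Their dams had received a single intratracheal dose of 25 μL in pregnancy, either a titanium dioxide nanoparticle suspension of 100 μg per mouse (TiO2-H) or, as Sham, its particle-free supernatant. The labels give the day of exposure both as gestational day 10.5 and as gestational day 14. There were 4 groups, by exposure and sex, and each was 1 pool of RNA on 1 one-color array. A Sham pool came from 5 dams and a TiO2-H pool from 6, with 2 offspring taken per dam. By the authors' counts of dams, the male and female pools of an exposure came from the same dams. No group therefore had a replicate, and no litter can be followed. Values of the 4 arrays are listed with Sham before TiO2-H and, within each, the male label before the female label.

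Reference collections of transcripts differ in how a transcript enters them. RefSeq NM records are curated or supported messenger RNAs, usually with known protein products. Ensembl adds transcripts by automatic gene building and manual annotation, among them alternative isoforms, non-coding RNAs, transcribed pseudogenes and gene segments that are joined only in lymphocytes. An array probe that is named by an Ensembl transcript can therefore report a less well described RNA, but this was not checked for the probes here. The questions were how many of them gave a signal in newborn brain, how strong it was, and whether it differed with prenatal TiO2-H exposure. No gene name, sequence or genome position was used for these probes, so they are given by identifier.

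Neuronal, progenitor and glial markers fitted the labelled tissue. All 5 neuronal genes (Tubb3, Dcx, Stmn2, Map2, Snap25), 4 of 4 progenitor genes and 5 of 5 glial genes were well above background on all 4 arrays. Of 4 B lymphocyte genes 1, Cd79b, and of 5 T lymphocyte genes 2, Cd3e and Lck, were well above background on all 4 arrays. In each list 3 genes were so on none. The summed signals of the 2 lists ranged over the arrays from 140.3 to 153 and from 3029 to 3506. Genes of other cells were also well above background on all 4 arrays. They were 3 of 3 microglial, 2 of 2 endothelial, 3 of 3 olfactory sensory neuron and 1 of 2 liver genes. Both erythroid genes with a probe were so too, and Hba-a1 read from 43750 to 49658. The sex-linked probes went against the sex labels of the TiO2-H arrays. The Y-linked gene Eif2s3y read 3519 and 419 in Sham males and females but 6.40 and 4345 on the TiO2-H arrays labelled male and female, whereas Xist, the RNA that coats the inactive X chromosome, read 17.9, 276, 347 and 5.36. The Sham female array also had Y-linked signal above background, with Eif2s3y as above and Ddx3y at 142, beside 1418, 7.18 and 1783 on the Sham male array and the TiO2-H arrays labelled male and female. Results within a sex are therefore given by label, and also with the TiO2-H arrays crossed between the labels.

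Fewer of the Ensembl transcript probes than of the RefSeq NM probes gave a signal that the scanner software called well above background, on each of the 4 arrays. In Sham the count was 1480 of 3217 (46.0%) for males and 1459 of 3218 (45.3%) for females. In TiO2-H it was 1586 (49.3%) on the array labelled male and 1681 (52.2%) on that labelled female. The share of the RefSeq NM probes was 73.3%, 72.7%, 74.9% and 76.3% in the same order. The difference from the RefSeq NM probes was -26.1 ± 1.57 percentage points (SD, n = 4 arrays), and it was below 0 on all 4 arrays (exact two-sided sign-flip test over arrays, p = 0.125, the smallest p that 4 arrays can give).

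The Ensembl transcript probes were detected about as often as the RefSeq NR and AK probes. The RefSeq NR probes were well above background at 46.3%, 45.3%, 48.3% and 50.8% on the 4 arrays, and the AK probes at 45.7%, 43.8%, 49.2% and 52.5%. The share of the Ensembl transcript probes was on average 0.53 ± 0.82 points above that of NR (SD, n = 4 arrays, exact sign-flip p = 0.375) and 0.42 ± 0.79 points above that of AK (exact sign-flip p = 0.375), each with both signs among the 4 arrays.

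**Figure D1:**
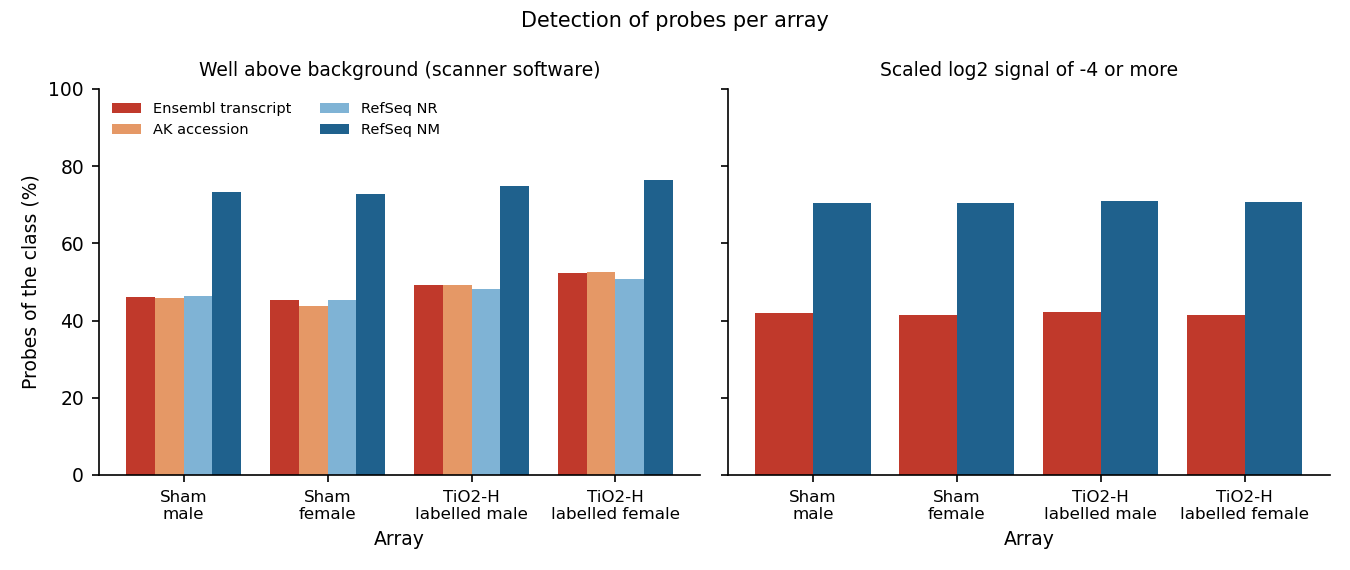
Share of probes (%, y axis) on each of the 4 arrays (x axis), by class of annotation. At left a probe counts when the scanner software called it well above background; at right when its scaled log2 signal was -4 or more. The Ensembl transcript probes lie between 45.3% and 52.2% at left and between 41.5% and 42.3% at right.

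More Ensembl transcript probes were called well above background on the TiO2-H arrays than on the Sham arrays. The mean share was 5.09 points higher on both TiO2-H arrays than on both Sham arrays, and for RefSeq NM probes 2.60 points higher (exact permutation of 2 against 2 arrays, two-sided p = 0.333 for each, the smallest possible). The lowest signal called well above background was 30.4 and 31.0 in Sham males and females, and 29.5 and 23.3 on the TiO2-H arrays labelled male and female. When 1 level of signal served for all arrays in place of the software's call, a log2 scaled signal of -4 or more, the share was 41.9%, 41.5%, 42.3% and 41.5% for the Ensembl transcript probes and 70.4%, 70.5%, 70.9% and 70.6% for the RefSeq NM probes. With that level the shares of the 2 exposures overlapped for the Ensembl transcript probes. For the RefSeq NM probes both TiO2-H arrays stayed slightly above both Sham arrays. The gap between the classes remained.

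Most probes were either on every array or on none. Of the 3218, 1378 (42.8%) were well above background on all 4 arrays and 1395 (43.3%) on none. A further 267 were so on 1 array, 107 on 2 and 71 on 3. Of the RefSeq NM probes 71.3% were well above background on all 4 arrays.

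For a small number of probes the detection calls split by exposure. Well above background on both TiO2-H arrays and neither Sham array were 71 of 3217 Ensembl transcript probes (2.21%), beside 1.79% of all probes. The share was 1.14% for RefSeq NM probes, 1.81% for RefSeq NR probes and 2.96% for AK probes. The opposite pattern, both Sham arrays and neither TiO2-H array, was found for 5 (0.155%), beside 0.0863% of all probes. Single arrays together accounted for more. The TiO2-H array labelled female alone had 133 probes (4.13%, beside 2.98% of all probes) and that labelled male alone 63 (1.96%, beside 1.65%). Sham males alone had 37 (1.15%, beside 1.07%) and Sham females alone 34 (1.06%, beside 0.970%). The array with the lowest limit of detection was also the one with the most probes of its own, and the part of that limit in these counts was not tested.

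The signal of the Ensembl transcript probes was also lower as a class. Signals are given here on a log2 scale relative to the 75th percentile of their own array, which was 810, 795, 867 and 871 signal units, so that 0 is that percentile. The median over all Ensembl transcript probes was -4.84, -4.92, -4.70 and -4.78 on the 4 arrays, and that over the RefSeq NM probes -1.31, -1.32, -1.31 and -1.30. The difference of medians was -3.50 ± 0.09 log2 (SD, n = 4 arrays, exact sign-flip p = 0.125) and held on each array.

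The gap was smaller among detected probes. For the probes well above background on all 4 arrays, the median was -1.39, -1.41, -1.40 and -1.41 for the Ensembl transcript probes and 0.25, 0.24, 0.25 and 0.26 for the RefSeq NM probes, a difference of -1.65 ± 0.02 log2 (n = 4 arrays, exact sign-flip p = 0.125). In that set 34.6% to 35.0% of the Ensembl transcript probes exceeded the array's 75th percentile, against 53.1% to 53.3% of the RefSeq NM probes. Against the NR probes of that set the difference was -0.13 ± 0.02 log2 and against the AK probes 0.81 ± 0.08 log2, each of 1 sign on all 4 arrays (exact sign-flip p = 0.125 for each).

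**Figure D2:**
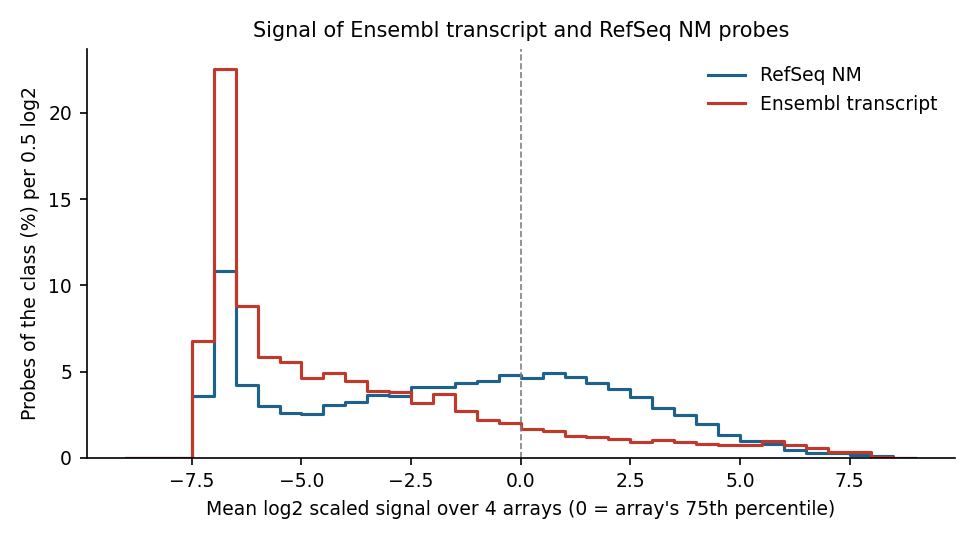
Distribution of the log2 scaled signal, averaged over the 4 arrays (x axis, 0 is the 75th percentile of an array), as the percent of the probes of each class in steps of 0.5 log2 (y axis). Of the Ensembl transcript probes 22.6% lie between -7 and -6.5, where undetected probes gather, against 10.8% of the RefSeq NM probes.

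A bright tail was present among them. On every array 194 Ensembl transcript probes (6.03%) read 10000 or more, against 7.81% of RefSeq NM probes. At 100000 or more on every array were 24 (0.746%), against 142 RefSeq NM probes (0.535%). The brightest, ENSMUST00000082402, read 277846 and 279101 in Sham males and females, and 314800 and 320797 on the TiO2-H arrays labelled male and female. Its log2 TiO2-H over Sham was 0.08 for the male labels and 0.07 for the female labels after scaling. No spot on any array was marked as saturated. The log2 ratios of the 10 brightest probes ranged from -0.19 to 0.08 for the male labels and from -0.07 to 0.07 for the female labels, so that none of them passed 1.5-fold or 0.67-fold.

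The detection of these probes was uneven over the numbering of the identifiers. The numbers in the identifiers ran from 153 to 174836, and 1975 probes (61.4%) had a number of 100000 or more. The run of 1000 numbers with the most probes held 277, numbered 103000 to 103999, and the next largest run held 67. Of the 277 probes, 27 (9.75%) were well above background on all 4 arrays and 216 (78.0%) on none. On single arrays 13.0% to 14.8% of this run was well above background. The remaining 2941 probes were on all 4 arrays in 45.9%, and 16 other steps of 10000 numbers with at least 20 probes each ranged from 34.5% to 67.1%.

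Those 277 probes lowered the share for the whole class by 3.08 to 3.53 percentage points. Without them the share well above background was 49.1%, 48.4%, 52.6% and 55.8% on the 4 arrays, which is still below that of the RefSeq NM probes on each array. The run was singled out after its values were seen, so that it is given as a description without a test. Among its 27 probes on all 4 arrays the median of the mean log2 scaled signal was -3.12, and 0 passed 1.5-fold or 0.67-fold for the male labels and 1 for the female labels.

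**Figure D3:**
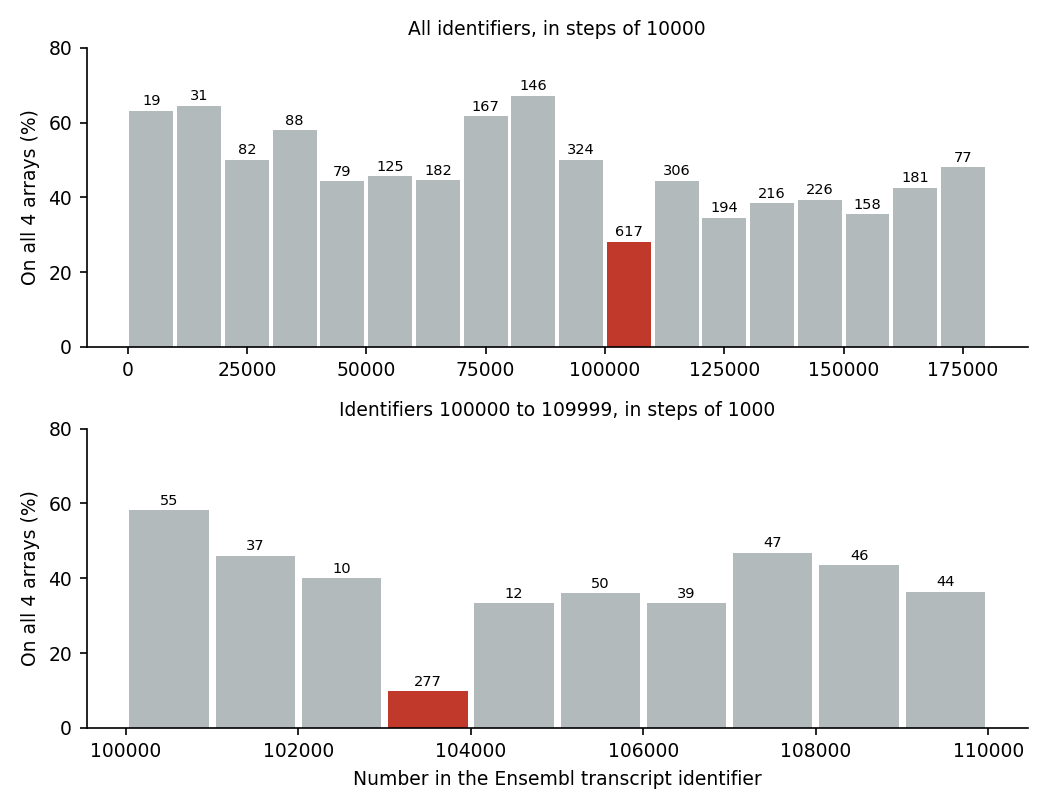
Share of Ensembl transcript probes well above background on all 4 arrays (%, y axis) against the number in the identifier (x axis), in steps of 10000 (top) and, within 100000 to 109999, in steps of 1000 (bottom). The figure over each bar is its number of probes, and the red bar of the bottom panel is the run 103000 to 103999, at 9.75% of 277 probes.

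The effect of prenatal exposure was asked within each sex label, as TiO2-H over Sham, among the 1378 Ensembl transcript probes well above background on all 4 arrays. With 1 array per group these ratios compare libraries and have no test. The thresholds were 1.5-fold and 0.67-fold. For the male labels 33 probes (2.39%) were at or above 1.5-fold, beside 1.81% of all 29409 probes compared, and 22 (1.60%) at or below 0.67-fold, beside 1.06%. For the female labels 24 (1.74%) were at or above 1.5-fold, beside 1.15% of all probes, and 25 (1.81%) at or below 0.67-fold, beside 1.23%. The median log2 ratio was 0.002 for the male labels and -0.006 for the female labels, and the robust SD over probes 0.18 and 0.17.

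With the TiO2-H arrays crossed, so that the array labelled female was set over Sham males, 39 Ensembl transcript probes were at or above 1.5-fold, beside 1.57% of all probes, and 29 at or below 0.67-fold, beside 1.25%. The array labelled male over Sham females gave 29 higher, beside 1.47%, and 21 lower, beside 0.928%.

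The 2 Sham arrays, which share the exposure and the dams and differ in labelled sex, gave counts of a like order. For Sham female over Sham male 20 Ensembl transcript probes (1.45%) were at or above 1.5-fold, beside 1.1% of all probes, and 22 (1.60%) at or below 0.67-fold, beside 1.11%. The robust SD of this log2 ratio was 0.13, and that of TiO2-H female over TiO2-H male, by label, was 0.12. The error that the scanner software gives for a log2 ratio of 1 probe was 0.21 in the median for each of the 4 ratios.

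Without scaling between arrays the split moved towards higher probes. It was then 55 higher and 20 lower for the male labels and 50 higher and 19 lower for the female labels. The median log2 TiO2-H over Sham, over both pools, was then 0.11 for the Ensembl transcript probes and 0.12 for all probes. Normexp background correction on the median signals, run with an offset of 50 signal units, gave 7 higher and 16 lower for the male labels. For the female labels it gave 5 higher and 14 lower. The shares of all probes past the thresholds were not compared under either setting.

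The probes past a threshold were mostly dim. Of the 55 for the male labels, 7 of 73 probes had a mean log2 scaled signal under -4, 39 of 483 between -4 and -2, 6 of 342 between -2 and 0, and 3 of 480 at 0 or more. In the same ranges the shares were 9.59%, 8.07%, 1.75% and 0.625%, against 9.02%, 5.16%, 1.28% and 0.199% for RefSeq NM probes. For the female labels they were 6.85%, 7.66%, 2.05% and 0%, against 12.0%, 5.51%, 1.15% and 0.109%. For Sham female over Sham male they were 2.74%, 6.83%, 1.75% and 0.208%, against 3.83%, 5.14%, 1.25% and 0.149%. The lower 2 ranges held 40.3% of the Ensembl transcript probes and 22.0% of the RefSeq NM probes compared.

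**Figure D4:**
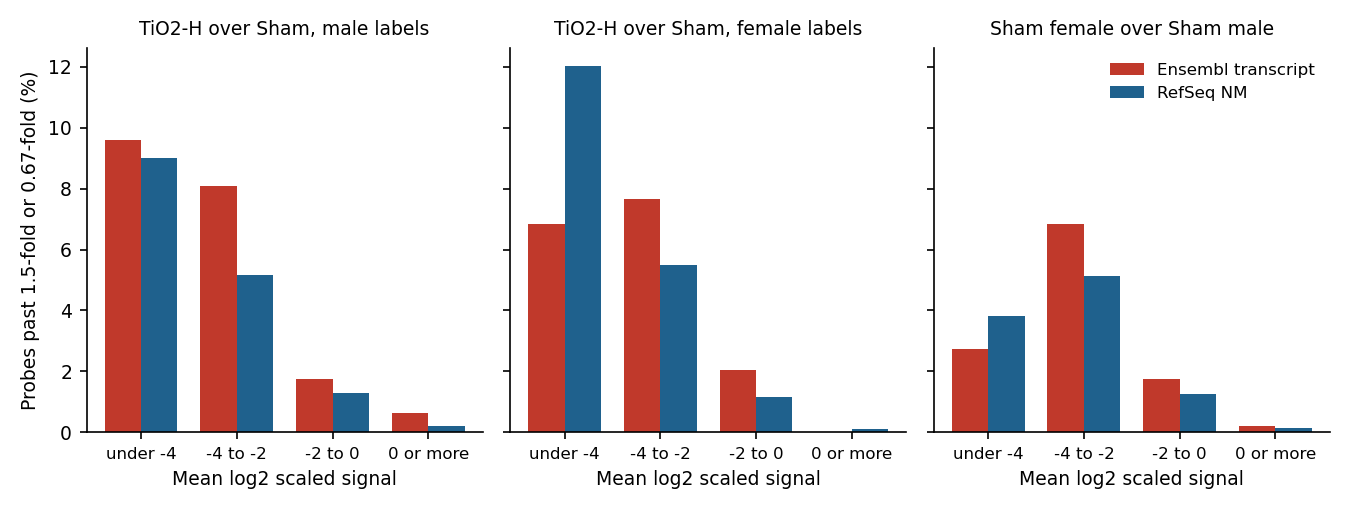
Percent of probes at or above 1.5-fold or at or below 0.67-fold (y axis) by mean log2 scaled signal (x axis), for both TiO2-H over Sham ratios and for Sham female over Sham male. Red bars are Ensembl transcript probes and blue bars RefSeq NM probes, all well above background on all 4 arrays; under 2.1% of either class passed at a signal of -2 or more.

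Many of the lower values came from a single Sham array. An array was taken to stand apart on a probe when it exceeded each of the other 3 by 1.5-fold or more. The Sham male array did so for 18 Ensembl transcript probes, beside 0.704% of all probes, the Sham female array for 12, beside 0.602%, the TiO2-H array labelled male for 10, beside 0.476%, and that labelled female for 7, beside 0.34%. Of the 22 probes lower for the male labels, 18 were those with the Sham male array apart. Of the 25 lower for the female labels, 12 had the Sham female array apart. Of the 33 and 24 higher probes, 10 and 7 had the TiO2-H array of their label apart. An array that stands apart in this way passes the threshold of its label by definition. Over all probes compared, the Sham array was apart for 207 of 313 lower for the male labels and 177 of 362 for the female labels. The TiO2-H array was apart for 140 of 532 and 100 of 338 higher.

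ENSMUST00000147386 was the lowest for the female labels. It read 52.3 and 647 in Sham males and females, and 46.8 and 41.2 on the TiO2-H arrays labelled male and female. The Sham female array alone was high, and the other 3 arrays lay close together. Its log2 TiO2-H over Sham was -4.10 for the female labels and -0.26 for the male labels, with a scanner error of 0.28 and 0.36, and its log2 Sham female over Sham male was 3.66.

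A probe lower under both labels was ENSMUST00000097948, the only one of the 1378 (0.0726%, beside 0.0748% of all probes). This probe read 276 and 59.7 in Sham males and females, and 51.3 and 42.4 on the TiO2-H arrays labelled male and female. The Sham male array stood apart here, and the other 3 arrays differed by 17.4 signal units or less. Its log2 ratio was -2.52 for the male labels and -0.63 for the female labels, with a scanner error of 0.28 and 0.32. With the TiO2-H arrays crossed it was -2.81 over Sham males and -0.34 over Sham females, so that it was no longer past 0.67-fold in the second. Without scaling its ratio for the female labels was -0.50, again not past 0.67-fold.

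Higher under both labels were 8 of the 1378 Ensembl transcript probes (0.581%), beside 0.187% of all probes and 0.0740% of RefSeq NM probes. AK probes gave 8 of 1034 (0.774%). All 8 were dim, reading from 36.6 to 178, and their log2 ratios ran from 0.63 to 1.45 for the male labels and from 0.59 to 1.75 for the female labels. In 2 of the 8 a single TiO2-H array stood apart. With normexp on the median signals 0 Ensembl transcript probes were higher under both labels, beside 0.051% of all probes, and without scaling 16 were, beside 0.534%. With the TiO2-H arrays crossed, 5 probes were higher in both pairs, each of them among the 8, beside 0.184% of all probes, and 2 were lower in both, beside 0.0816%, neither of them the probe that was lower as labelled.

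The 2 with the largest smaller ratio of the pair were ENSMUST00000076157 and ENSMUST00000139847. ENSMUST00000076157 read 55.4 and 72.8 in Sham males and females and 113 and 163 on the TiO2-H arrays, with log2 ratios of 0.92 and 1.03 (scanner error 0.30 and 0.26). ENSMUST00000139847 read 57.3 and 78.8 on the Sham arrays and 153 and 164 on the TiO2-H arrays, with log2 ratios of 1.32 and 0.92 (scanner error 0.29 and 0.26). In both, each TiO2-H array was above each Sham array. With the TiO2-H arrays crossed, the log2 ratios of ENSMUST00000076157 were 1.45 over Sham males and 0.50 over Sham females, the second below 1.5-fold, and those of ENSMUST00000139847 were 1.41 and 0.83. With normexp the ratios were 0.56 and 0.63 for ENSMUST00000076157 and 0.49 and 0.42 for ENSMUST00000139847, so that neither passed 1.5-fold under both labels. Their log2 Sham female over Sham male was 0.42 and 0.49, which is 37.0% to 52.6% of the TiO2-H over Sham ratios.

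**Figure D5:**
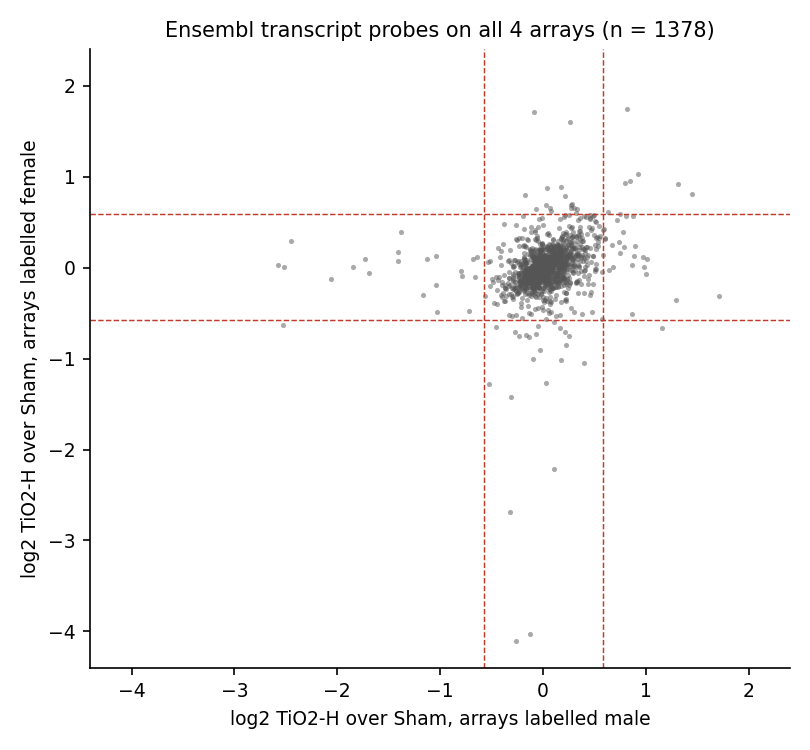
Log2 TiO2-H over Sham of the 1378 Ensembl transcript probes well above background on all 4 arrays, for the arrays labelled male (x axis) and female (y axis). Each point is 1 probe and the dashed lines are 1.5-fold and 0.67-fold; 8 points lie beyond both upper lines and 1 beyond both lower lines, and most points far below 0 on 1 axis lie near 0 on the other.

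Both TiO2-H arrays lay above both Sham arrays for 354 of the 1378 Ensembl transcript probes (25.7%), beside 28.9% of all probes, and both lay below for 349 (25.3%), beside 25.8%. The shares of the Ensembl transcript probes without overlap of the exposures were thus near those of the whole array.

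In limma on the 2 TiO2-H against the 2 Sham arrays, 0 of the 1378 Ensembl transcript probes had an adjusted p under 0.05, as had 0% of all 29409 probes (Benjamini-Hochberg over all of them, lowest adjusted p among Ensembl transcript probes 0.221). At an unadjusted p under 0.05 there were 268 (19.4%), 163 higher and 105 lower, beside 18.2% of all probes. When the variance was allowed to follow the signal, with limma's trend and robust options, 61 (4.43%) passed the adjusted threshold, 39 higher and 22 lower, beside 3.69% of all probes. These p-values measure the spread between the male and female pools of an exposure. Those pools came from the same dams, so the p-values do not measure the spread between litters. The choice of variance model decided whether any probe passed.

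Probes well above background on only 1 array of a pair give only a bound on their ratio. The bound is at least the bright value over the dim array's own limit of detection, or over the dim value where that was higher. For the male labels 166 Ensembl transcript probes (5.16%, beside 4.20% of all probes) were well above background on the TiO2-H array only. Of these, 50 (30.1%) had a bound of at least 1.5-fold, beside 33.7% of all such probes. On the Sham array only there were 60 (1.86%, beside 1.64%), of which 47 (78.3%) had such a bound, beside 75.5%. For the female labels 263 (8.17%, beside 6.24%) were on the TiO2-H array only, with 40 (15.2%) past the bound, beside 16.5%. On the Sham array only there were 41 (1.27%, beside 1.15%), all 41 past the bound, beside 99.8%. The largest bounds were at least 7.84-fold and 26.4-fold for TiO2-H only and Sham only in the male labels, and at least 12.8-fold and 47.8-fold in the female labels. The limit of detection on the TiO2-H array labelled female, 23.3, was below the limit on each of the other arrays. On the Sham female array the limit was 31.0. From the limits alone, a Sham-only probe of the female labels thus lay near 1.5-fold or more over the TiO2-H limit. With the highest limit after scaling used for every array, 47 and 45 were past the bound for the male labels, TiO2-H only and Sham only. For the female labels they were 40 and 33. The part of the limits in the numbers of probes on only 1 array, and in the shares past the bound, was not tested.

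Several probes to 1 transcript allowed a check of the ratios. The array held 133 such transcripts, 121 with 2 probes and 12 with 3 or 4, which share their identifier. All probes were on all 4 arrays for 51 of them, none on any array for 33, and the remaining 49 were mixed. At least 2 probes were on all 4 arrays for 53 transcripts. Between those probes the log2 TiO2-H over Sham had a median range of 0.093 for the male labels and 0.095 for the female labels. The range was below log2 of 1.5 in 52 and 49 of the 53. Most probes of the class lay within the thresholds, so that such a range says little about agreement within a transcript. For the log2 Sham female over Sham male the median range was 0.103. The mean log2 scaled signal differed between probes of a transcript by 1.14 in the median and by up to 9.83. At least 1 probe passed a threshold in 3 transcripts for the male labels and in 4 for the female labels. In 0 of these did all probes of the transcript pass.

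A further check came from 7 Ensembl transcript probes that were each printed on 10 spots. The 3 of them on all 4 arrays had an SD between spots of 0.095 log2 in the median, from 0.051 to 0.304, and the 3 on no array 0.374. The brightest of the 7 read 2533 to 2944 over its spots in Sham males and 2394 to 2862 in Sham females. On the TiO2-H arrays it read 3002 to 3395 and 2974 to 3595. Divided by the 75th percentile of the array, its spots overlapped between the exposures, with the highest Sham spot at 3.63 and the lowest TiO2-H spot at 3.42. Its log2 TiO2-H over Sham after scaling was 0.16 for the male labels and 0.18 for the female labels. Another of the 3 had log2 ratios of -0.13 and -0.16, and the dimmest of the 3 had 0.16 and 0.43. Spots of 1 array share their pool of RNA, so that they give the error of measurement and not the spread between animals.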

How the data were processed

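Total RNA of newborn whole brain was pooled per group and hybridized to SurePrint G3 Mouse GE 8 × 60K one-color arrays (Agilent). For each array the authors provided its scanner output, with intensity values made with Feature Extraction (version 10.10.1.1 per the file headers), which corrects the background and flags each spot, and a table of the same intensity values, which was equal to the processed signal for all 59305 spots that are not controls. Grid files name the genome build mm9, and no coordinates were used. Mean signals per spot were not used here.

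Spots flagged as outliers were left out, spots of a probe averaged, and the log2 processed signal scaled to the 75th percentile of each array over non-control spots. A probe with several spots was taken as well above background when at least 50% of its unflagged spots were. Robust SDs are scaled median absolute deviations. Groups came from the labels. Ratios within a sex label had no test, shares and medians were compared over arrays by exact permutation, and limma (version 3.58.1, R 4.3.3) compared both TiO2-H arrays with both Sham arrays, without a sex term, over 29409 probes with Benjamini-Hochberg adjustment. Python 3.11.15 with pandas 2.3.3 and numpy 2.4.6 was used for the rest. The fit and the fold rule were first tested on simulated data. Precision is limited by the number of arrays. Alternatives covered the call, scaling, background correction, filter, threshold, pairing and left-out arrays.

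The members, the lists and the alternatives were chosen with earlier results of these data known. Named were the brightest probe, the 2 with the largest change higher under both labels, the 1 lower under both, the lowest under the female label and the 1 of opposite sign under the labels, from a longer rule that also covered the 5 largest changes per label, bounds, the lowest limma p and gene families. The identifiers are not paired with gene names in the tables used here, so at most 2 higher and 2 lower identifiers are printed, and families and a comparison with RefSeq probes of the same gene were left out. RefSeq accessions of the tissue markers were named through a RefSeq gene table. A planned marker is not reported here.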

Additional observations from a re-analysis of the deposited data

Results flagged for a closer look

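1 of the 1378 Ensembl transcript probes on all 4 arrays passed the thresholds in opposite directions under the 2 sex labels, ENSMUST00000110971. It read 69.1 and 142 in Sham males and females, and 165 and 98.4 on the TiO2-H arrays labelled male and female. Its log2 TiO2-H over Sham was 1.16 for the male labels and -0.66 for the female labels, with a scanner error of 0.25 and 0.23, and its log2 Sham female over Sham male was 1.07. The difference between the labels was not tested, since each group was 1 array. Opposite directions past the thresholds were found for 0.0726% of the Ensembl transcript probes and 0.109% of all probes. With the TiO2-H arrays paired across the sex labels its log2 ratios were 0.41 and 0.091, against Sham males and Sham females. The ratio for the female labels was also short of 0.67-fold with normexp, at -0.35, and without scaling, at -0.53, while that for the male labels was 0.74 and 1.26.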

How the results depend on the processing

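The comparisons gave 99 values under alternative settings, of which 64 stayed within the spread set for them (the 95% Wilson interval of a share, the SD over arrays of a signal difference, the robust SD between the Sham arrays for a median ratio, 1.5 times for a count). The intensity values as provided equal the processed signal, so that this alternative could not move any value. All alternative medians of the log2 ratio stayed within their spread, which is that of single probes and therefore wide for a median. Without scaling the median was 0.10 for the male labels and 0.13 for the female labels, against 0.002 and -0.006. With the positive and significant call of the scanner software the share of Ensembl transcript probes detected was 66.9%, 66.1%, 73.0% and 73.6% on the 4 arrays. Without the run of identifiers with the most probes it was 49.1%, 48.4%, 52.6% and 55.8%, and at a scaled log2 signal of -4 or more 41.9%, 41.5%, 42.3% and 41.5% (both added after seeing the data). The difference of median log2 signal from RefSeq NM probes was -1.96, -1.96, -1.93 and -1.999 with normexp, -1.63, -1.64, -1.65 and -1.67 over probes on all 4 arrays, and -3.85, -3.92, -3.72 and -3.82 with 1 probe per identifier. With quantile normalization it was -3.51 on the TiO2-H array labelled male.

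The 55 probes past a threshold for the male labels became 23 with normexp, 23 at 2-fold and 0.5-fold, 159 with a floor for dim arrays and 581 with no filter. The 49 for the female labels became 19, 14, 141 and 1039 in the same order. The shares of all probes were not compared under these alternatives. For Sham female over Sham male 42 became 21 at 2-fold and 0.5-fold. Apart from normexp, these moves follow from a stricter threshold or from more dim probes counted. The normexp setting added an offset of 50 signal units, which draws dim values together on a log2 scale. Its part in the normexp move was not tested. The limma count of 0 became 61 with trend and robust options and was 0 under the other 11 settings run, from 0 to 0 when each array was left out in turn, where the lone array of an exposure is assumed to vary like the other exposure. With 1 common floor the counts of bounds stayed within 1.5 times. Of the 120 alternative values of the named probes 107 stayed within the scanner error. They include those with outlier spots kept, the intensity values as provided or another filter, which repeated the main value and could not have moved. Another 12 moved by more but kept their sign (with normexp or the TiO2-H labels crossed), and 1 reversed. For ENSMUST00000110971 the log2 ratio against Sham female was 0.091 with the TiO2-H labels crossed. The comparison with RefSeq NM probes of the same gene was not run. Fits with sex as a term, which set each TiO2-H array beside a Sham array, had a lowest adjusted p among Ensembl transcript probes of 0.327 as labelled and 0.373 crossed.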
